A study of Sus scrofa with 9 samples.

Results

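The miR-25 family comprises miR-25, miR-32, miR-92a, miR-92b and miR-363. It was followed through porcine (Sus scrofa) metaphase II (MII) oocytes, pronuclear (PN) 1-cell embryos and mature sperm. Members were taken by name from a small RNA count table, whatever their species prefix, arm or variant suffix. The rule found 11 of 1313 names (13 of 1420 rows). Of these 11 names, 4 carried the pig prefix (ssc) and 7 that of another species, and 5 miRNAs were represented. miR-25 itself stood under a dog name (cfa-miR-25), and miR-92a under 4 names.

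The study set out to find RNA that sperm deliver to the oocyte at fertilization, and sequenced each stage in 3 libraries, all labelled as untreated. MII oocytes came from postpubertal gilts and were matured in vitro and stripped of cumulus cells. PN embryos were taken 18 h into in vitro fertilization. The methods give 10000 oocytes and 10000 embryos as the source of RNA without saying how these were divided among libraries. Below, oocytes means the MII stage and embryos the PN stage. Sperm for sequencing came from adult Large White boars, whereas semen for fertilization is described as coming from Landrace boars. Nothing states that libraries of a group came from separate animals or cultures, and p-values measure only the spread between them.

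miRNAs are short RNAs that guide the silencing of mRNAs, which they recognise mainly through the seed, a stretch near their 5' end. The active strands of miR-25, miR-32, miR-92a, miR-92b and miR-363 share a seed, and the family also holds miR-367, for which the table listed 0 names. Best known are the members made from clustered precursors. miR-92a is cut from the miR-17-92a transcript, an oncogenic cluster that favours proliferation and survival, and again from the related cluster on the X chromosome that ends in miR-363. miR-25 is made together with miR-106b and miR-93 from a cluster in an intron of MCM7, a replication factor gene. A precursor gives a 5p and a 3p arm. In this family the 3p arm is usually the active strand, except for miR-32, where it is the 5p arm.

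The annotation used here (RefSeq genes on Sscrofa11.1, the build in the submitters' processing notes) placed MIR92A-1 at chr11:60735358-60735437, the last of 6 miRNA loci within 782 bases (chr11:60734656-60735437). MIR92A-2 at chrX:110113717-110113796 and MIR363-1 at chrX:110113552-110113631 lay side by side among 6 loci within 917 bases (chrX:110113552-110114468). MIR92B stood apart at chr4:94624285-94624364. MIR32 at chr1:250115904-250115973 lay inside the span of TMEM245 (chr1:250080364-250181827), and whether in an exon or an intron was not analysed here. None of the other 4 loci (0) lay inside another gene of that table. A locus of miR-25 was not analysed here.

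Library totals ran from 289183 to 381674 counts in oocytes, 422630 to 771001 in embryos and 1640492 to 2455102 in sperm, so that depth and stage cannot be told apart. Levels are normalized read counts, scaled to a library of 1000000 counts (CPM). They are shares of a library and not amounts per cell, and fewer cells of a type or less RNA per cell cannot be told apart in such bulk samples. A listed 0 may hide up to about 5 counts, which is 13.1 to 17.3 CPM in oocytes, 6.49 to 11.8 CPM in embryos and 2.04 to 3.05 CPM in sperm. The value of 5 was set here and is not strict. Over all names and libraries 442 values were 5, and 74 whole values lay above 0 and below 5. This floor covers counting error only. The labels were checked against markers. The sperm miRNAs miR-34b, miR-34c, miR-449a and miR-449b (4 of 4 listed) summed to 151499 to 153743 CPM in sperm, 2036 to 2099 CPM in oocytes and 2250 to 2455 CPM in embryos. Of 8 oocyte and early embryo markers 3 were listed, led by miR-371 at 1183 ± 98.9 CPM in oocytes and 1157 ± 84.0 CPM in embryos (SD, n = 3), and all 8 were at 0 in sperm. Red blood cell markers (miR-451, miR-486 and miR-144, 3 of 4 listed) summed to 166 to 254 CPM in oocytes, 788 to 822 CPM in embryos and 160 to 260 CPM in sperm.

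The family was a minor part of the oocyte and embryo profiles and a major part of that of sperm. Its names together held 0.964% of the counts in oocytes, 1.04% in embryos and 6.98% in sperm. By library this was 9657, 9431 and 9824 CPM in oocytes, 10297, 10576 and 10398 CPM in embryos, and 67958, 70156 and 71354 CPM in sperm. The sperm libraries were far above all others, and the embryo libraries lay just above those of oocytes. Sperm exceeded oocytes 7.24-fold and embryos 6.70-fold (two-sided exact permutation p = 0.1 each, the smallest that 3 libraries against 3 allow). Embryos exceeded oocytes 1.08-fold (exact permutation p = 0.1). The size of the sperm excess depended on the library total. miR-205 took 45.8% to 49.3% of counts in oocytes, 45.2% to 45.8% in embryos and at most 0.00707% in sperm. With miR-205 left out of the total, sperm exceeded oocytes 3.81-fold and embryos 3.66-fold. Embryos then exceeded oocytes 1.04-fold (exact permutation p = 0.4), and their libraries no longer lay apart.

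**Figure D1:**
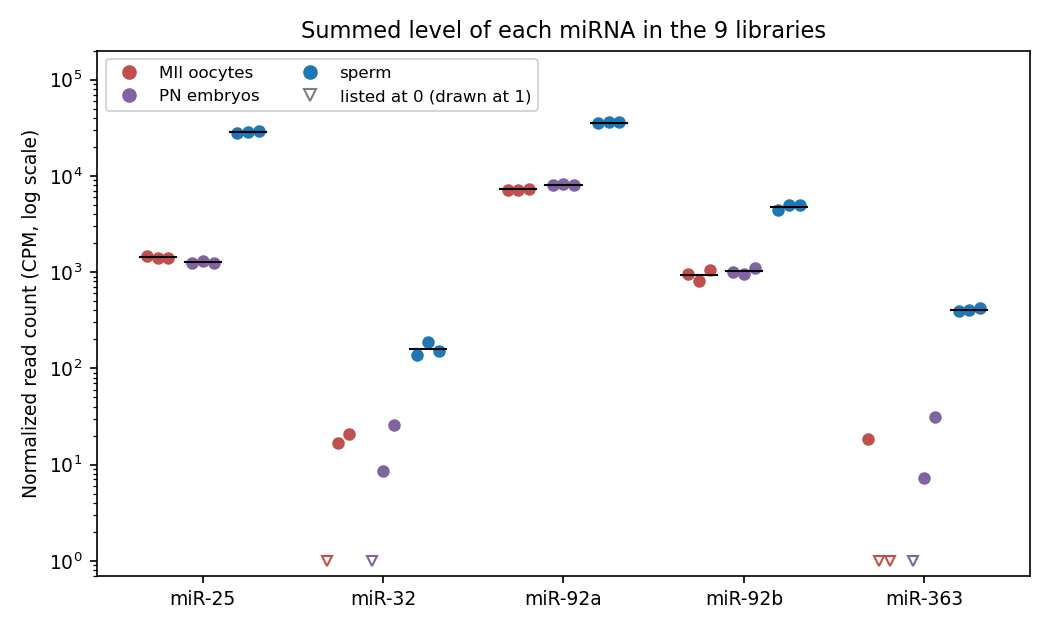
Summed normalized read count of each family miRNA in every library (CPM, log axis). Points are libraries coloured by group, bars are group means drawn where all 3 libraries listed the miRNA, and open triangles, drawn at 1, are values listed at 0. For each miRNA the 3 sperm libraries lie above all libraries of MII oocytes and PN embryos. The latter lie close together for miR-25, miR-92a and miR-92b and are spread out for miR-32 and miR-363, which are listed at 0 in some of them.

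With repeated rows summed, miR-92a led the family at every stage. In sperm it fell behind miR-25 only when identical rows were counted once. The table lists ssc-miR-92a and mmu-miR-92a-3p_R+2 in 2 rows each with identical values, which were summed, while miR-25 has no repeated row. The names of miR-92a summed to 7213, 7208 and 7345 CPM in oocytes, 8047, 8289 and 7984 CPM in embryos and 35080, 36047 and 36595 CPM in sperm. With identical rows counted once, miR-92a was at 21314, 21925 and 22223 CPM in sperm and miR-25 at 31261, 32001 and 32784 CPM, so that miR-25 led there. In oocytes and embryos miR-92a stayed ahead, at 4288 ± 70.9 against 1559 ± 45.3 CPM and 4801 ± 120 against 1412 ± 42.2 CPM (SD, n = 3). Each row of ssc-miR-92a was not whole in 4 of 9 libraries, but the sum of its rows in only 2. For mmu-miR-92a-3p_R+2 this was 3 libraries and 0. Reads divided equally between the rows would give such values, and counting once would then leave out part of the miR-92a reads. How reads were assigned to rows was not tested. With rows summed, the form named ssc-miR-92a ranked 15 among all names in oocytes, 16 in embryos and 7 in sperm by mean CPM. Replicates differed little, with a coefficient of variation of 1.07%, 1.98% and 2.14% for the miR-92a sum.

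miR-25 showed the widest contrast among the abundant members. cfa-miR-25 was at 1459, 1390 and 1414 CPM in oocytes, 1249, 1297 and 1244 CPM in embryos and 27952, 28511 and 29200 CPM in sperm. It moved from rank 61 in oocytes and 72 in embryos to rank 8 in sperm, next to ssc-miR-92a.

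miR-92b, encoded alone, followed miR-92a at a lower level. ssc-miR-92b-3p_R-2 was at 967, 815 and 1044 CPM in oocytes, 1001, 949 and 1091 CPM in embryos and 4376, 4978 and 4955 CPM in sperm. Only sperm stood apart, and the other two groups overlapped.

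The remaining pair, miR-363 and miR-32, was scarce outside sperm. ssc-miR-363_R-2 had 7, 0 and 0 counts in oocytes, 0, 5 and 24 in embryos and 652, 707 and 1030 in sperm, the latter equal to 397, 408 and 420 CPM. ssc-miR-32 had 0, 0 and 6 counts in oocytes, 0, 0 and 20 in embryos and 219, 300 and 351 in sperm, or 150 ± 20.7 CPM (SD, n = 3). In embryos most of these reads came from the deepest library, and at this depth a level near the floor could not be distinguished from absence in oocytes and embryos.

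To ask which members differed between sperm and oocytes, each name was read from an edgeR quasi-likelihood fit over all 587 names that passed a filter on low counts. A call needed a Benjamini-Hochberg adjusted p (q) under 0.05 and a log2 fold change of 1 or more in either direction. Of the 11 family names 8 passed the filter. ssc-miR-363_R-2 and ssc-miR-32 passed through their sperm counts alone and had to differ to be tested. In sperm 7 of the 8 were called higher and 0 lower, where 83.0% of all names tested were called, 42.2% higher and 40.7% lower. A q under 0.05 alone was reached by 7 of the 8 names and by 88.9% of all names. The median log2 fold change was 2.46 over the 8 names and 0.00 over all names. Call rates were high in this contrast, and the ranges of sperm and oocyte libraries were separate for 7 of the 8 names and for 81.6% of all names.

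The increase was unequal among members. The log2 fold change of cfa-miR-25 was 4.39 ± 0.05 (SE, 95% interval 4.27 to 4.50, edgeR q = 2.14e-13), a 20.9-fold difference. That of ssc-miR-92a was 2.36 ± 0.05 (SE, interval 2.26 to 2.47, q = 1.34e-11) and that of ssc-miR-92b-3p_R-2 was 2.40 ± 0.11 (SE, interval 2.16 to 2.64, q = 6.50e-09). The intervals of miR-92a and miR-92b overlapped, and both lay below that of miR-25. ssc-miR-363_R-2 had 5.87 ± 0.64 (SE, interval 4.44 to 7.30, q = 1.02e-05) and ssc-miR-32 had 4.62 ± 0.94 (SE, interval 2.51 to 6.73, q = 0.00104). These wide intervals rest on 7 and 6 counts in all of the oocyte libraries, and both overlap that of miR-25. Without the 1 oocyte library that listed the name, the fitted values were 11.8 for ssc-miR-363_R-2 (without library 1) and 10.4 for ssc-miR-32 (without library 3). Against embryos without library 3 they were 6.81 and 10.3. These values rest on counts of 0 or near 0 and are no estimate of size.

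Against embryos 7 of the 8 names, again without ocu-miR-92a-5p_1ss12AG, were called higher in sperm and 0 lower, where 86.2% of all names were called, 38.8% higher and 47.4% lower. A q under 0.05 alone was reached by 7 of the 8 names and by 92.2% of all names, and ranges were separate for 8 of the 8 and for 92.2% of all names. This contrast shares the sperm libraries with the previous one. The median log2 fold change was 2.50 over the 8 names and -0.519 over all names. The log2 fold change was 4.63 ± 0.05 for cfa-miR-25 (SE, edgeR q = 1.69e-13), 2.26 ± 0.05 for ssc-miR-92a (q = 1.70e-11) and 2.36 ± 0.10 for ssc-miR-92b-3p_R-2 (q = 4.07e-09). For ssc-miR-363_R-2 it was 4.88 ± 0.47 (q = 3.65e-06) and for ssc-miR-32 3.98 ± 0.72 (q = 4.03e-04). These latter names entered the fit through their sperm counts alone here too, so that their calls are a description and no support, and 5 of the 7 calls do not have this limit. The scaling used in the fit bears on these sizes. With DESeq2 size factors the median over all names became -0.316 against embryos and 0.116 against oocytes, and all 7 names were still called higher in sperm. White blood cell markers (miR-223, miR-142 and miR-150) summed to 108 to 120 CPM in sperm, 0 to 60.2 CPM in oocytes and 47.3 to 53.2 CPM in embryos, and follicle cell markers (miR-143, miR-145, miR-224 and miR-383) to 679 to 761, 217 to 259 and 240 to 279 CPM. Of the latter only miR-383 was higher in sperm, at 686 ± 46.5 CPM against 93.1 ± 16.9 CPM in oocytes (SD, n = 3), and the means of the other 3 were lower in sperm than in both other groups. Of the white blood cell markers miR-142 led, at 92.1 ± 1.39 CPM in sperm, 33.2 ± 30.5 in oocytes and 34.3 ± 5.25 in embryos (SD, n = 3). miR-223 was at a mean of 11.8 CPM in sperm, 15.5 in embryos and 0 in oocytes, and miR-150 at 8.30, 0 and 4.37 CPM. The part of other cells in the family's levels was not tested.

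**Figure D2:**
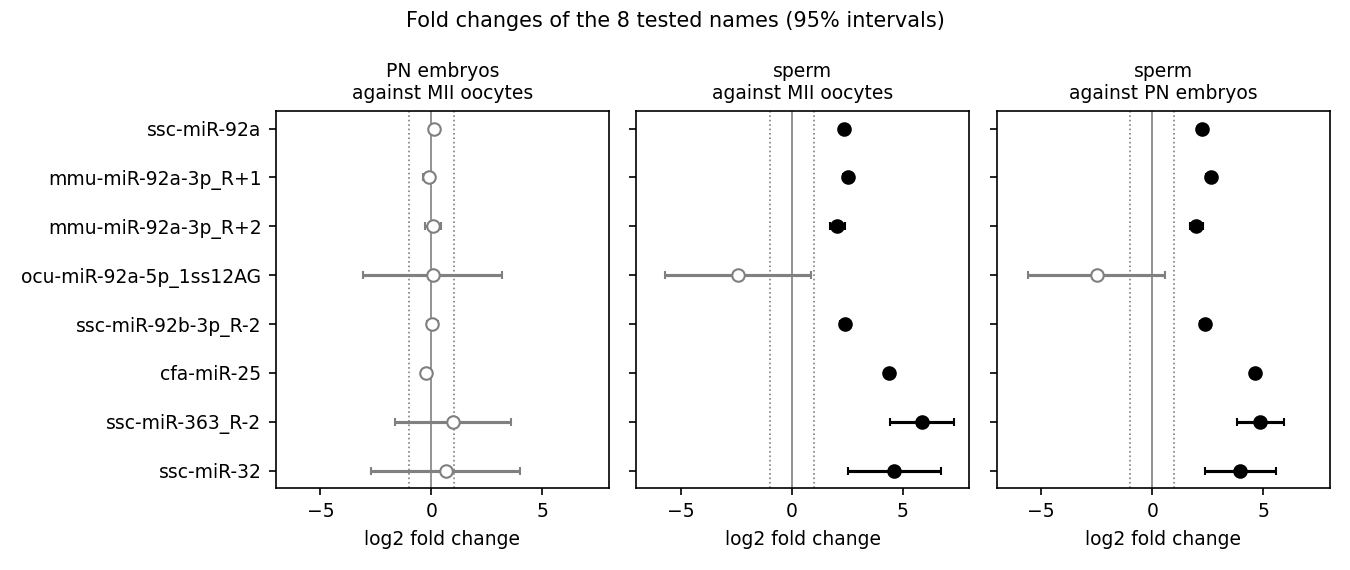
Log2 fold change with its 95% interval for the 8 family names tested, in each of the 3 comparisons. Filled points are called names, dotted lines mark a log2 fold change of 1 in either direction. In both sperm panels 7 names lie above 1, cfa-miR-25 at 4.39 and 4.63 with narrow intervals, and in the left panel no name is called.

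Between oocytes and embryos no family name was called. The count was 0 of the 8 names tested, where 12.9% of all names tested were called, 11.2% higher and 1.70% lower. An unadjusted p under 0.05 was reached by 2 of the 8 and by 35.6% of all names, and the DESeq2 Wald test also called 0. Ranges of the libraries were separate for 2 of the 8 names and for 39.5% of all names. The median log2 fold change was 0.070 over the 8 names and 0.083 over all names. The one name with an edgeR q under 0.05 was cfa-miR-25, which was lower in embryos by a small margin (log2 fold change -0.24 ± 0.05, SE; 95% interval -0.354 to -0.127, q = 0.00611, lower in 3 of 3 libraries). A q under 0.05 alone was reached by 25.2% of all names. This difference had q over 0.05 without oocyte library 1 (log2 fold change -0.087, q = 0.735), embryo library 2 (-0.263, q = 0.102) or embryo library 3 (-0.236, q = 0.0957). A fit added after seeing the data pooled the names and arms of every miRNA, which left 403 rows tested. There miR-25 had a log2 fold change of -0.233 ± 0.080 (SE, edgeR q = 0.0706).

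ssc-miR-92a was slightly higher in every embryo library than in any oocyte library, with a log2 fold change of 0.11 ± 0.05 (SE, 95% interval 0.0024 to 0.212, edgeR q = 0.133). For ssc-miR-92b-3p_R-2 the interval ran from -0.210 to 0.282. Intervals of ssc-miR-363_R-2 (-1.62 to 3.60) and ssc-miR-32 (-2.72 to 4.01) were too wide to show or to exclude a change of several-fold. RNA brought in by sperm was sought here among names called higher both in sperm and in embryos than in oocytes. Of the 8 family names tested 0 were called in both of these contrasts, where 5.62% of all names tested were. The study's own screen differed, as it asked for RNA that oocytes do not express. miR-92a, miR-25 and miR-92b were at means of 7255, 1421 and 942 CPM in oocytes. An addition that is small beside these levels would not be called. The other 3 family names were not tested in this fit. Of these, ggo-mir-92b-p5 was called higher in embryos than in oocytes without embryo library 1 (edgeR q = 0.0445). That library listed it at 0, and the call rests on 5 and 10 counts, near the floor, against 0 in all oocyte libraries.

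Because the members rose by different factors, the make-up of the family differed between stages. miR-92a took 74.7%, 76.4% and 74.8% of the family's counts in oocytes, 78.1%, 78.4% and 76.8% in embryos, and 51.6%, 51.4% and 51.3% in sperm. The share of miR-25 was 15.1%, 14.7% and 14.4% in oocytes, 12.1%, 12.4% and 12.05% in embryos, and 41.1%, 40.6% and 40.9% in sperm. With identical rows counted once, the share of miR-92a was 62.2 ± 1.011%, 65.1 ± 1.19% and 36.5 ± 0.210% in the order oocytes, embryos, sperm, and that of miR-25 was 22.6 ± 0.588%, 19.2 ± 0.362% and 53.5 ± 0.337% (SD, n = 3). Under both treatments miR-92a held most of the family's counts in oocytes and embryos and the share of miR-25 was higher in sperm. Which of them was the larger in sperm turned. Counting once lowers the counts of miR-92a but not those of miR-25, which has no repeated row. These shares do not depend on the library total. With rows summed, neither share overlapped between any pair of groups (two-sided exact permutation p = 0.1 in each, the smallest possible, 0.174 after Benjamini-Hochberg adjustment over 33 tests of shares).

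**Figure D3:**
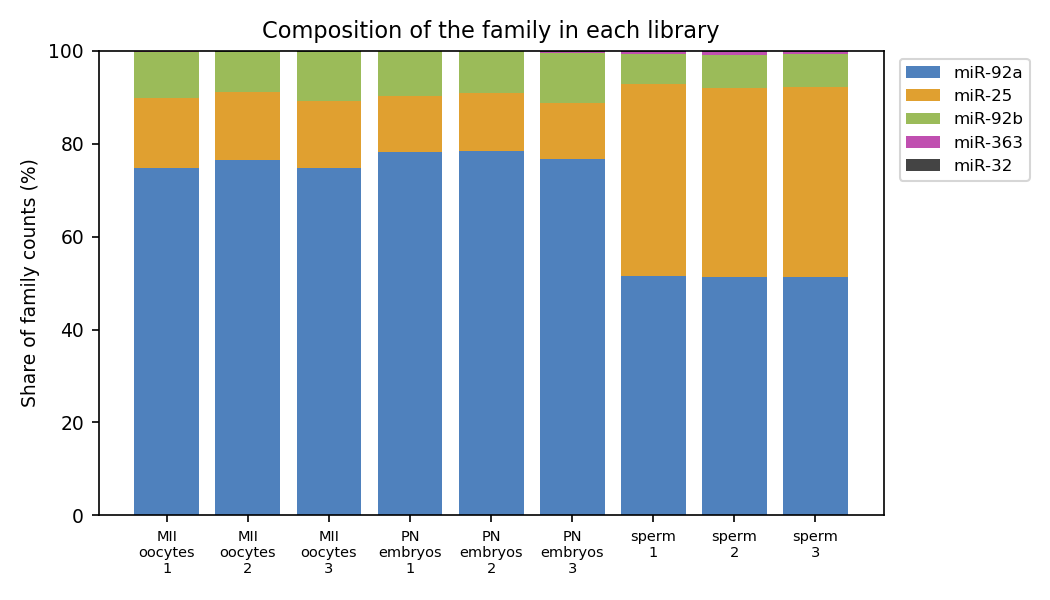
Share of the family's counts (%) held by each of the 5 miRNAs in the 9 libraries, with repeated rows summed. miR-25 takes 40.6% to 41.1% of the bar in sperm and 12.05% to 15.1% in the other libraries, and replicates are nearly alike.

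The ratio of miR-25 to miR-92a counts was 0.196 ± 0.0056 in oocytes, 0.157 ± 0.0017 in embryos and 0.795 ± 0.0038 in sperm (SD, n = 3). With identical rows counted once, which lowers the counts of miR-92a only, it was 0.364 ± 0.0083, 0.294 ± 0.0022 and 1.47 ± 0.0079 (SD, n = 3), above 1 in sperm. In contrast, the ratio of miR-92b to miR-92a was 0.130 ± 0.015, 0.126 ± 0.012 and 0.133 ± 0.0073 (SD, n = 3). Counted once it was 0.241 ± 0.026, 0.236 ± 0.022 and 0.246 ± 0.014 (SD, n = 3). With rows summed, the ratio of miR-92b to miR-92a overlapped between all groups, and the exact permutation p ran from 0.4 to 0.8. Adapter ligation favours some sequences over others, so a ratio between different miRNAs is one of reads and not of molecules.

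ssc-miR-92a was the main form of miR-92a at each stage. It held 89.3 ± 0.445%, 90.4 ± 0.271% and 89.2 ± 0.325% of miR-92a counts in oocytes, embryos and sperm (SD, n = 3). mmu-miR-92a-3p_R+1 held 7.53 ± 0.941%, 6.50 ± 0.389% and 8.40 ± 0.245%, and mmu-miR-92a-3p_R+2 held 2.99 ± 0.834%, 2.93 ± 0.193% and 2.39 ± 0.0907% (SD, n = 3 each). The share of ssc-miR-92a was higher in embryos, and that of mmu-miR-92a-3p_R+1 higher in sperm, than in either other group, without overlap (exact permutation p = 0.1 each, 0.174 adjusted over the 33 tests). The meaning of the suffixes is not given in the sources used here. Both variants were called higher in sperm than in oocytes, at log2 fold changes of 2.52 ± 0.09 and 2.05 ± 0.14 (SE, edgeR q = 1.75e-09 and 2.74e-07).

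Names of the 5p arm were rare. There were 3 of them, for miR-25, miR-92a and miR-92b, and together they held at most 0.462% of the family's counts in any library. ocu-miR-92a-5p_1ss12AG had 17, 0 and 0 counts in oocytes, 5, 17 and 12 in embryos and 0, 0 and 18 in sperm. It was the one tested name not called in sperm (log2 fold change -2.43 ± 1.47, SE, against oocytes, edgeR q = 0.143), and its interval ran from -5.72 to 0.863. Without sperm library 3, which held all its sperm counts, it was called lower in sperm (log2 fold change -6.60, edgeR q = 0.0174, against oocytes and -6.71, q = 0.0147, against embryos). Without oocyte library 1, which held all its oocyte counts, the sign turned (4.60, q = 0.325). The 3 names that failed the filter were ocu-miR-25-5p, ggo-mir-92b-p5 and pal-miR-32-3p_L+1. They reached at most 12, 77 and 23 counts in a library. ggo-mir-92b-p5 was listed at 0 in all oocyte libraries, at 0, 5 and 10 counts in embryos and at 23, 44 and 77 counts in sperm.

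The other miRNAs of the clusters were read to see whether whole clusters moved together. In all 10 such miRNAs were listed under 15 names, of which 13 were tested. Against oocytes 9 of the 13 were called higher in sperm and 2 lower, with a median log2 fold change of 2.11, where 42.2% of all names were called higher and 40.7% lower with a median of 0.00. Of the higher names, ssc-miR-20b and ocu-miR-18a-3p_R-3 passed the filter through their sperm counts alone. Their calls are thus a description and no support. The 2 lower names, ssc-miR-17-5p and ssc-miR-106a_R-1_1ss1AC, had the same counts in all 9 libraries and describe 1 set of reads. For the miR-106b-25 cluster the members rose in sperm by unequal amounts. cfa-miR-106b rose by 2.52 ± 0.11 and cfa-miR-93 by 1.27 ± 0.07 on the log2 scale (SE, edgeR q = 6.54e-09 and 2.60e-08), against 4.39 for cfa-miR-25. The 3p names ocu-miR-106b-3p and ocu-miR-93-3p rose by 3.32 ± 0.13 and 2.51 ± 0.25 (SE, edgeR q = 2.25e-09 and 4.33e-06). The names of each of these miRNAs thus also rose unequally. The ratio of miR-25 to miR-93 counts was 0.512 ± 0.030 in oocytes, 0.572 ± 0.023 in embryos and 4.40 ± 0.368 in sperm (SD, n = 3), without overlap between groups (exact permutation p = 0.1 each, 0.133 adjusted over 24 tests of ratios). miR-25 to miR-106b was 3.06 ± 0.241, 2.71 ± 0.332 and 8.66 ± 0.339 (SD, n = 3).

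In the miR-17-92a cluster the members also differed. ssc-miR-19b rose in sperm by 2.52 ± 0.10 and ssc-miR-19a by 2.11 ± 0.28 on the log2 scale (SE, edgeR q = 2.08e-09 and 4.73e-05), close to the value of ssc-miR-92a. ssc-miR-20a-5p_R+1 had a log2 fold change of 0.04 ± 0.09 (SE, q = 0.699), and ssc-miR-17-5p was lower in sperm, at -1.22 ± 0.06 (SE, q = 2.39e-08). The value of miR-17 is uncertain, because its reads are those of ssc-miR-106a_R-1_1ss1AC of the X-linked cluster. That cluster also holds MIR19B-2 and MIR92A-2, so the values of ssc-miR-19b and ssc-miR-92a cannot be assigned to a single cluster either. The scarce other-arm name ocu-miR-18a-3p_R-3 was at 0 in all oocyte libraries and at 60, 57 and 81 counts in sperm. Of miR-92a to miR-17 counts the ratio was 2.37 ± 0.026 in oocytes, 2.68 ± 0.079 in embryos and 28.0 ± 2.85 in sperm, whereas that to miR-19b was 27.1 ± 1.22, 36.1 ± 2.02 and 24.4 ± 2.89 (SD, n = 3).

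**Figure D4:**
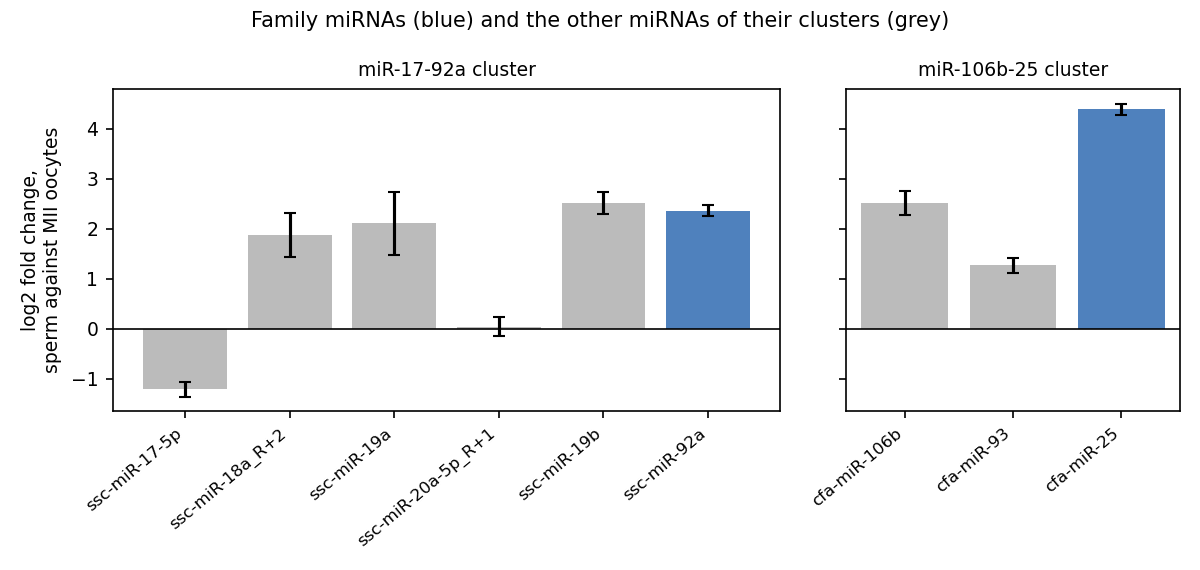
Log2 fold change in sperm against MII oocytes, with its 95% interval, for 1 name of each miRNA of the miR-17-92a and miR-106b-25 clusters in cluster order, without the names of the other arm. Blue bars are family members and grey bars the other miRNAs. The values shown run from -1.22 (ssc-miR-17-5p) to 2.52 (ssc-miR-19b) and from 1.27 (cfa-miR-93) to 4.39 (cfa-miR-25).

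The X-linked cluster was barely listed outside sperm apart from the reads it shares. Sperm libraries held 32.1 ± 2.89 CPM of ssc-miR-20b and 1.42 ± 1.53 CPM of ssc-miR-18b_R-4 (SD, n = 3 each). Outside sperm, ssc-miR-20b was listed only in embryo library 2, at 2.40 CPM, and ssc-miR-18b_R-4 in no library. In sperm ssc-miR-363_R-2 was thus the highest of the names that belong to this cluster alone. The floor was 13.1 to 17.3 CPM in oocytes and 6.49 to 11.8 CPM in embryos. It exceeds the sperm level of ssc-miR-18b_R-4, and ssc-miR-20b below it could also be listed at 0. The values of 0 therefore do not show that these names were absent outside sperm.

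The 3 names outside the family whose profile over the 9 libraries was most like that of miR-92a were ssc-miR-30b-5p, ssc-miR-191_R-1 and cfa-let-7b, with Pearson r of log2(CPM + 1) of 0.9997, 0.9993 and 0.998 among 303 names compared. With sperm apart from the other 6 libraries such values are easily high, and 42 of the 303 names exceeded 0.99. ssc-miR-30b-5p was at 837 ± 5.57, 1051 ± 22.6 and 18105 ± 159 CPM in oocytes, embryos and sperm (SD, n = 3).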

How the data were processed

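Small RNA libraries were made by adapter ligation, reverse transcription, PCR and gel selection (labels). The authors deposited estimated counts per miRNA name, marked raw and not normalized, and 10.4% of nonzero values carried a fraction. The miRNA caller and its settings are not given in the sources used here. Columns were matched to samples by library name, with 0 further columns. Rows of 105 repeated names held identical values and were summed; an alternative counted rows of identical values once, whatever their name. Rounded counts were fitted in edgeR 4.0.16 (R 4.3.3): all 9 libraries, group as factor, TMM, filterByExpr (minimum count 10), quasi-likelihood test, Benjamini-Hochberg over all names. SEs were derived from each F statistic and fold change. Shares and ratios were compared with two-sided exact permutation tests. Replicate libraries differed by more than sampling noise (chi-square per degree of freedom 2.2 to 12.7). Values by library were planned for names with at least 100 CPM in a group and for the 5 sums. They were given for the sum of miR-92a and the main names of miR-25, miR-92b, miR-363 and miR-32. The separate names of miR-92a were given mainly as shares and fold changes. Members and lists were chosen with earlier results of these data known. Scripts were tested on simulated data. Alternatives included DESeq2 1.42.0, other scalings and filters, the replicate block and leaving out each library; a fit with arms pooled was added after seeing the data. Mature sequences were not analysed here.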

Additional observations from a re-analysis of the deposited data

How the results depend on the processing

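In sperm, 7 family names were called higher against each other group under each rescaling, with the replicate block, at q under 0.01 and with DESeq2. Calls in either direction ran from 5 to 8 against oocytes and from 5 to 9 against embryos, of which 5 to 8 were higher in sperm in each. ocu-miR-92a-5p_1ss12AG was called lower under 1 alternative against oocytes (without sperm library 3) and 2 against embryos (the same, and the 2 groups alone, -2.40). The fewest calls came where all names of a miRNA were summed to 5 rows (added after seeing the data). For embryos against oocytes the count was 0 except at q under 0.05 alone, where cfa-miR-25 gave 1, and without embryo library 1, where ggo-mir-92b-p5 gave 1 (edgeR q = 0.0445) (range over left-out libraries 0 to 1). With the replicate block the counts were 0, 7 and 7. Same-numbered libraries did not deviate together (correlations from -0.204 to 0.0279), and the samples share only a number.

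The log2 ratio of the summed family was 0.113 in embryos against oocytes and became 0.170 with pig names only. It became 0.0413 with TMM-scaled sizes (exact permutation p = 0.2) and 0.0579 without miR-205 in the total (p = 0.4). Sperm against oocytes (2.86) became 2.91 with TMM-scaled sizes, 1.93 without miR-205, 2.33 with pig names only, 3.12 with identical rows counted once and 2.94 without suffixed names. Sperm against embryos (2.74) became 2.87, 1.87, 2.16, 3.02 and 2.82 in the same order. The difference in the miR-92a share (2.48, -23.9 and -26.3 percentage points) became 0.449, -1.42 and -1.87 with pig names only, which leave out miR-25 altogether. With identical rows counted once, the sperm differences became -25.7 and -28.7, and without suffixed names -29.2 and -32.3.

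Of 401 refitted values of the 8 names, 389 kept direction and call, 3 became stronger and 9 changed sign, all 9 when 1 library was left out. Over left-out libraries the log2 fold change in embryos against oocytes ran from -5.48 to 6.27 for ssc-miR-32, -0.0661 to 0.187 for ssc-miR-92b-3p_R-2, -0.476 to 7.07 for ocu-miR-92a-5p_1ss12AG, -0.752 to 6.85 for ssc-miR-363_R-2, -0.233 to 0.0556 for mmu-miR-92a-3p_R+1 and -0.0484 to 0.291 for mmu-miR-92a-3p_R+2. For ocu-miR-92a-5p_1ss12AG in sperm against oocytes it ran from -6.60 to 4.60. The causes were not tested. Depth limits miR-32, miR-363 and the 5p names in oocytes and embryos.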

Other observations

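Some values of miR-92a and miR-92b names were fractions. Each of the 2 rows of ssc-miR-92a was not whole in 4 of 9 libraries, and each of the 2 rows of mmu-miR-92a-3p_R+2 in 3. Summed by name, ssc-miR-92a was not whole in 2 libraries, the same number as ssc-miR-92b-3p_R-2, and the sum of both names was whole in all 9 (within 0.02). Both libraries were of sperm (1 and 3). The part of shared reads in the levels of miR-92a and miR-92b was not tested.

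Markers of red blood cells stood higher in embryos than in oocytes. miR-451 was at 102 ± 36.4 CPM in oocytes and 509 ± 35.9 CPM in embryos, and miR-144 at 24.3 ± 4.12 and 154 ± 12.5 CPM (SD, n = 3). The part of such cells in the levels of miR-25 and miR-92a was not tested.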
